A study of Homo sapiens with 7 samples.

Results

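The genes described here are 41 DNA repair genes, taken by name and sorted by pathway, of 20163 protein-coding genes in the annotation. They comprise 13 genes of base excision repair, 3 replicative polymerase and clamp genes, 2 of mismatch repair, 8 of nucleotide excision repair, 12 of double-strand break repair, 2 of interstrand crosslink repair and 1 of direct reversal. Kasumi-1, an established myeloblast line from a patient with acute myeloid leukemia, carries the t(8;21) translocation, which fuses the DNA-binding part of the transcription factor AML1 (RUNX1) to ETO. Chromatin immunoprecipitation and sequencing (ChIP-seq) was carried out in growing Kasumi-1 cells for AML1, AML1-ETO, the co-repressor N-CoR, the co-activator p300 and trimethylated lysine 4 of histone H3 (H3K4me3), a mark of active promoters. The AML1 antibody binds the C-terminal region that the fusion lacks, and the fusion was recovered with an antibody to ETO. The authors pooled 2 biological replicates of each antibody and deposited 5 lists of peak positions. The AML1 list holds 11692 peaks, the AML1-ETO list 18087, the N-CoR list 10004, the p300 list 11020 and the H3K4me3 list 19632. All groups are the same cell line, so no cell without the fusion enters any comparison. The lists hold no read count, height or p-value, so they do not give the depth, and no spread between replicates can be given. Peak names in the N-CoR list begin with eto, and those in the p300 and H3K4me3 lists with aml1, although the lists differ in size and position. Each list was taken as its label says, and its size equals a peak number that the study gives for that antibody.

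Base excision repair removes a single damaged base: a glycosylase cuts the base out, an endonuclease opens the strand, and a polymerase and a ligase close it. Mismatch repair corrects errors left by replication, nucleotide excision repair cuts out a stretch around a bulky lesion, and breaks in both strands are rejoined at their ends or repaired from the sister chromatid. AML1-ETO has been reported to lower base excision repair genes, and the question here was where the 5 lists place the fusion and its partners at these genes compared with the other pathways. Expression was not measured in these lists.

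Each interval is 100 bp wide, with a summit at its centre. A summit was counted at a start when it lay within 1 kb of any annotated transcription start of the gene, and in the gene when it lay within the gene or 5 kb of it. Distances are from the nearest start of that gene, with negative values upstream. Summits of the same gene can have different nearest starts, so these values need not give the gap between summits. Intervals with shares are exact 95% Clopper-Pearson intervals, which cover counting only and treat genes as independent. Coordinates are in GRCh37, counted from 1.

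The cells were checked against marker genes first. H3K4me3 lay at a start of 7 of 7 myeloblast markers (MPO, CD33, CD34, KIT, CEBPA, SPI1 and ELANE). It also lay at 2 of 4 non-blood markers (EPCAM and COL1A1).

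The consensus bound by AML1 and by the fusion is TGTGGT. It stood on either strand in 3 of the 17 AML1-ETO windows at starts of repair genes, those of OGG1, LIG3 and NBN, which is 17.6% (95% interval 3.80 to 43.4) beside 16.5% of the 5181 AML1-ETO windows at starts of any protein-coding gene. For comparison, 3.55% of 19881 windows of 100 bp centred on canonical starts hold it. The reference bases around these matches are shown because OGG1 and LIG3 are the base excision repair genes whose fusion window at a start holds the sequence, and the downstream OGG1 site is the second fusion site of that gene. Capitals mark TGTGGT, and the strand given is the one on which it reads in this direction. The NBN window is not shown here.
OGG1 start, chr3:9791632-9791661, plus strand: ttccggtggtgcTGTGGTctgcccctggag
OGG1 downstream site, chr3:9821651-9821680, minus strand: taaagtgactgcTGTGGTttttcaaaaaaa
LIG3, chr17:33318336-33318365, minus strand: gaaccaggccttTGTGGTtcagcagttgta

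Away from starts, AML1-ETO had 23 further summits in the repair genes or their flanks, and 8 of these windows (34.8%, 16.4 to 57.3) held TGTGGT, beside 37.2% of all 12906 AML1-ETO windows more than 1 kb from a protein-coding start. Of the 23, 14 lay in introns and 6 lay within 1 kb of a start of a neighbouring protein-coding gene. The 12906 windows hold no such sites, so the 2 shares come from unlike sets. The 6 lay at UNG, APEX1, PCNA, BRCA1 and FANCA, whose windows away from their own starts held no TGTGGT. The intronic windows that hold it and are also overlapped by an AML1 window are shown for 1 gene of each main pathway, with XRCC1 as a base excision repair intron without it. These 4 were chosen after their values were seen. All are written on the plus strand, so that ACCACA in capitals is TGTGGT on the other strand.
NEIL1, chr15:75642398-75642497: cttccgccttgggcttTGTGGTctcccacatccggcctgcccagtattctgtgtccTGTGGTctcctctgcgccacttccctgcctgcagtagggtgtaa
XPC, chr3:14217333-14217432: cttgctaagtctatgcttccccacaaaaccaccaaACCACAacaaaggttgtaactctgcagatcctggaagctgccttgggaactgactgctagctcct
MRE11, chr11:94206757-94206856: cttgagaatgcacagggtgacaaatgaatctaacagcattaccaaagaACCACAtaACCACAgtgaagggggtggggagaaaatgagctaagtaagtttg
XRCC1, chr19:44066958-44067057: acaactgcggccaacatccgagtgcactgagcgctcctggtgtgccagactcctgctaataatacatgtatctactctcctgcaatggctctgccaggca

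All 41 repair genes carried H3K4me3 at a start (100%, 91.4 to 100), against 62.3% of protein-coding genes. p300 was at a start of 27 genes (65.9%, 49.4 to 79.9) against 37.0% of protein-coding genes. AML1-ETO was at a start of 15 (36.6%, 22.1 to 53.1) against 23.3%, AML1 at a start of 14 (34.1%, 20.1 to 50.6) against 18.6%, and N-CoR at a start of 6 (14.6%, 5.57 to 29.2) against 13.3%. Because every repair gene was marked by H3K4me3, the 12565 protein-coding genes with the mark at a start are the nearer background. Among them the shares were 58.4% for p300, 34.6% for AML1-ETO, 28.2% for AML1 and 20.2% for N-CoR, and each lay inside the interval of the repair genes. AML1-ETO was thus at repair gene starts about as often as at marked genes in general. The repair genes have more annotated starts than other genes, with a median of 15 against 5 for protein-coding genes and 7 for marked genes. With the canonical start alone, the counts were 26 for p300 (34.1% of protein-coding genes), 13 for AML1-ETO (18.3%), 14 for AML1 (14.7%) and 4 for N-CoR (10.0%), and all 41 had H3K4me3 there (58.7%). Among the 11839 genes marked at that start the shares were 56.9%, 28.8%, 23.7% and 16.0% for the 4 proteins in this order.

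**Figure D1:**
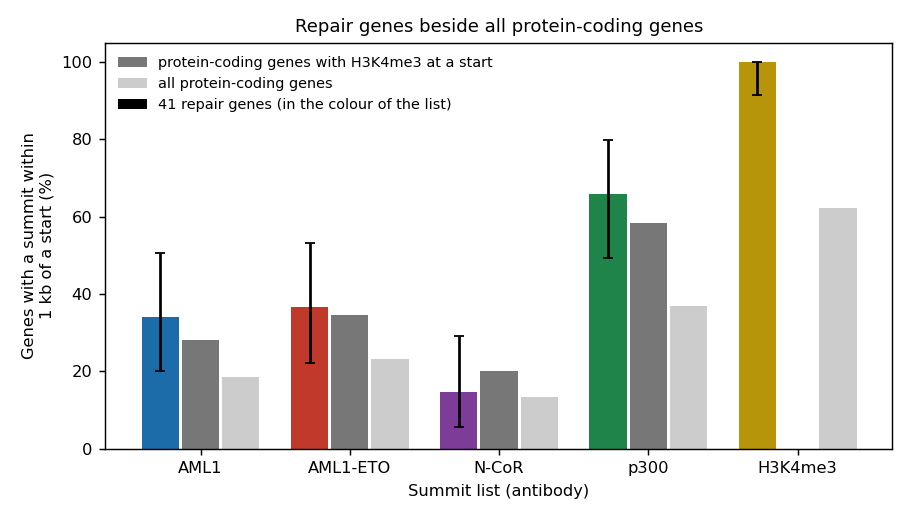
Bars show the percentage of genes with a summit within 1 kb of an annotated start, for the 41 repair genes (coloured, with exact 95% intervals), for protein-coding genes with H3K4me3 at a start (dark grey) and for all protein-coding genes (light grey). For AML1-ETO the repair genes stand at 36.6%, the marked genes at 34.6% and all genes at 23.3%. The dark bar is left out for H3K4me3, which defines those genes.

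The 2 forms of AML1 were at the same repair genes in part. Both were at a start of 8 genes (OGG1, MUTYH, XPC, ATM, BRCA2, RAD50, NBN and PRKDC), or 19.5% beside 12.3% of protein-coding genes and 18.5% of marked genes. AML1-ETO without AML1 was at 7 (NEIL1, PARP1, LIG3, POLD1, ERCC1, ERCC5 and FANCD2), or 17.1% beside 11.0% and 16.2%. AML1 without AML1-ETO was at 6 (TDG, APEX1, FEN1, POLE, PCNA and ATR), or 14.6% beside 6.30% and 9.78%. p300 and none of the other 3 proteins was at 11 (XRCC1, POLB, MSH6, XPA, ERCC3, PALB2, XRCC5, XRCC6, LIG4, FANCA and MGMT), or 26.8% beside 14.1% and 22.4%. At 9 genes none of the 4 proteins was at a start (UNG, NTHL1, LIG1, PMS2, ERCC2, ERCC4, DDB2, BRCA1 and MRE11), or 22.0% beside 53.9% and 29.6%. AML1-ETO and p300 were both within 1 kb of a start, not always the same one, at 10 genes (24.4% beside 16.1% and 25.2%). AML1-ETO and N-CoR were so at 4, OGG1, LIG3, ERCC1 and NBN (9.76% beside 9.69% and 14.6%). All 5 lists had a summit within 1 kb of a start at NBN alone among the 41, or 2.44% beside 5.76% and 9.25%.

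**Figure D2:**
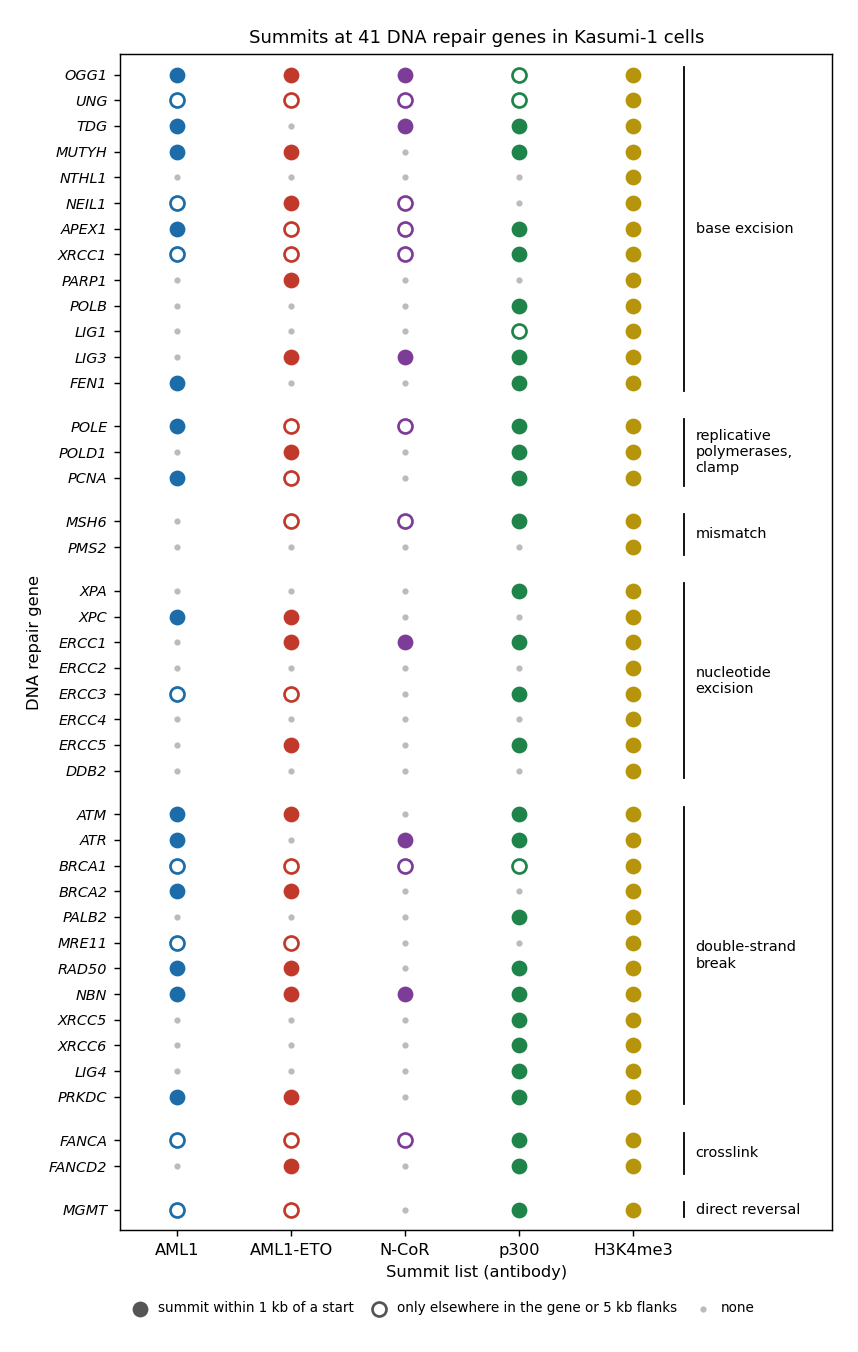
Each row is a repair gene and each column a summit list; filled circles mark a summit within 1 kb of a start, open circles a summit only elsewhere in the gene or its 5 kb flanks, and dots no summit. The H3K4me3 column is filled for all 41 genes, the p300 column for 27, and the AML1-ETO column for 15 genes, which are 5 of base excision, 3 of nucleotide excision and 5 of double-strand break repair, with POLD1 and FANCD2.

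AML1-ETO was at a start of 5 of 13 base excision repair genes (38.5%, 13.9 to 68.4), 3 of 8 nucleotide excision repair genes (37.5%, 8.52 to 75.5) and 5 of 12 double-strand break repair genes (41.7%, 15.2 to 72.3). Without NBN and PRKDC, which lie on a chromosome joined by the translocation, it was at 3 of 10 double-strand break repair genes. It was at neither mismatch repair gene (0 of 2, which allows a share of up to 84.2%), at POLD1 among the 3 replicative polymerase and clamp genes, at FANCD2 of the 2 crosslink repair genes, and not at the start of MGMT. The intervals of the 3 larger pathways cover one another's shares and both backgrounds, so no difference between pathways was detectable with these numbers of genes. AML1 was at 5 base excision (38.5%, 13.9 to 68.4), 1 nucleotide excision (12.5%, 0.316 to 52.7) and 6 double-strand break repair genes (50.0%, 21.1 to 78.9). N-CoR was at 3, 1 and 2 genes of these pathways, in the same order, and p300 at 7, 4 and 9.

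A wider list of 74 other repair genes was counted the same way. AML1-ETO was at a start of 25 of them (33.8%, 23.2 to 45.7), AML1 at 27 (36.5%), N-CoR at 12 (16.2%), p300 at 43 (58.1%) and H3K4me3 at 72 (97.3%), PARP2 and GTF2H2 being the genes without the mark. By pathway, AML1-ETO was at 6 of 11 base excision repair genes (54.5%, 23.4 to 83.3), 2 of 4 mismatch, 8 of 19 nucleotide excision (42.1%, 20.3 to 66.5), 6 of 27 double-strand break (22.2%, 8.62 to 42.3), 2 of 11 crosslink and 1 of 2 direct reversal genes. With both lists joined, the shares were 11 of 24 for base excision (45.8%, 25.6 to 67.2), 11 of 27 for nucleotide excision (40.7%, 22.4 to 61.2) and 11 of 39 for double-strand break repair (28.2%, 15.0 to 44.9). These intervals overlapped.

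**Figure D3:**
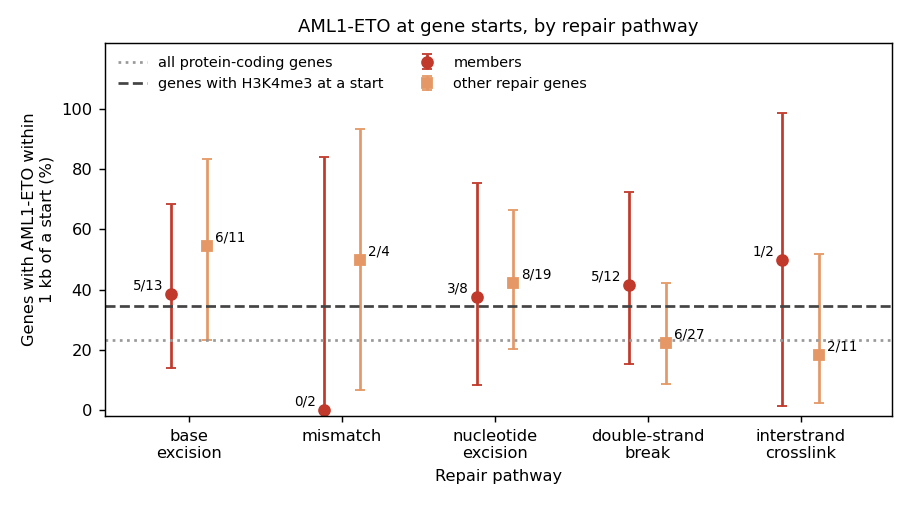
Points show the percentage of genes with an AML1-ETO summit within 1 kb of a start by pathway, for the 41 genes (circles) and the 74 other repair genes (squares), with exact 95% intervals and the counts beside them. The lines mark all protein-coding genes (23.3%, dotted) and genes with H3K4me3 at a start (34.6%, dashed); the interval of every pathway crosses the dashed line.

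The other genes nearest to an AML1-ETO summit were APTX, TDP1, NEIL3, PARP2 and MBD4 in base excision and single-strand break repair, with summits from -85 to 39 bp. In mismatch repair they were PMS1 and MSH3, which encode subunits of mismatch recognition complexes, at -7 and -117 bp. In nucleotide excision repair they included CCNH, GTF2H3, UVSSA and RPA2, from -22 to 16 bp, and in break repair CHEK2, DCLRE1C, RNF168, MDC1 and RAD52, from -105 to 273 bp. FANCI and FANCE of crosslink repair had theirs at -1 and 2 bp, and ALKBH2, which reverses alkylation damage directly, at -6 bp. All 5 lists had a summit within 1 kb of a start at 8 of the 74 genes (10.8%), among them APTX, GTF2H3, MDC1, RNF168, DCLRE1C and ALKBH2, beside 5.76% of protein-coding genes and 9.25% of marked genes.

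The glycosylases open base excision repair, and OGG1, which removes oxidised guanine, had fusion and co-repressor together at 2 sites. OGG1 (ENSG00000114026, chr3:9791628-9829903, plus strand) had an AML1 summit at -24 bp, an N-CoR summit at 2 bp and an AML1-ETO summit at -5 bp of its starts, and the 3 windows overlapped one another. Measured from the canonical start, the AML1, N-CoR and AML1-ETO summits lay at -32, -6 and 24 bp. The AML1-ETO summit lay in a 5′ UTR exon, 24 bp downstream of the canonical start, and the TGTGGT shown above lay 11 bp downstream of a start and inside all 3 windows. H3K4me3 had its summit at 51 bp, while the nearest p300 summit was 17561 bp away. A second OGG1 site lay 30015 bp downstream of the canonical start, in an intron of long isoforms and outside the canonical transcript. It lay at the edge of TADA3, which encodes a subunit of histone acetyltransferase complexes, with the N-CoR summit just outside that gene record. There all 4 protein windows overlapped, with the AML1 summit 7 bp, the N-CoR summit 5 bp and the p300 summit 45 bp from the AML1-ETO summit, and the nearest H3K4me3 summit 13401 bp away.

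MUTYH removes adenine paired with oxidised guanine, and NEIL1 removes oxidised pyrimidines. MUTYH had AML1 at 13 bp and AML1-ETO at 20 bp, overlapping each other in a coding exon of an isoform, and p300 apart from them at 3 bp of another start. These summits lay within 1 kb of a start of the neighbouring gene TOE1, so they cannot be assigned to either gene by position. NEIL1 had AML1-ETO without the other proteins at 8 bp. In its intron, 3068 bp from the canonical start, AML1-ETO, AML1 and N-CoR met within 21 bp, at the window with 2 copies of TGTGGT.

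TDG, UNG and NTHL1 are further glycosylases and differed from OGG1. TDG had AML1 at -35 bp, N-CoR at -11 bp and p300 at -37 bp, all overlapping, with the nearest AML1-ETO summit 35400 bp away, and it shares this start with UQCC6. UNG, which removes uracil, had no protein within 1 kb of a start. All 4 protein summits in its upstream flank, at -4148 to -4111 bp, lay at the start of ALKBH2. NTHL1 carried H3K4me3 at -374 bp, within 1 kb of a start of TSC2, and none of the 4 proteins in the gene or its flanks.

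After the glycosylases, APEX1 cuts the strand, and XRCC1 and PARP1 gather the repair proteins at the break. APEX1 had AML1 at -1 bp and p300 at -351 bp at a start shared with OSGEP, with the nearest AML1-ETO summit 6098 bp from the AML1 summit, in the downstream flank at the neighbouring genes PNP and PIP4P1. PARP1 showed the reverse, with AML1-ETO at 30 bp in a 5′ UTR exon and the nearest AML1 summit 57809 bp away. XRCC1 had p300 alone at its start, at -88 bp and within 1 kb of a start of PINLYP. In its intron, 12671 bp downstream of the canonical start, AML1-ETO stood 15 bp from AML1, 77 bp from N-CoR and 163 bp from p300, in the window without TGTGGT.

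Among the enzymes that fill and seal the gap, POLB (p300 at -32 bp), LIG1 (no protein at a start) and FEN1 had no AML1-ETO summit in the gene or its flanks. FEN1, the flap endonuclease, had AML1 at -81 bp and p300 at -413 and 0 bp, at a start shared with TMEM258 and FADS2. LIG3, the ligase that works with XRCC1, had AML1-ETO at -350 bp and N-CoR at -340 bp, 10 bp apart. That start belongs to a non-coding or incomplete transcript, and the AML1-ETO summit lies 10775 bp downstream of the canonical start, where p300 stood alone among the proteins, 388 bp from it. This p300 summit lay within 1 kb of a start of CCT6B. Counted by canonical starts, AML1-ETO was at 4 of the 13 base excision repair genes, LIG3 being the gene lost.

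**Figure D4:**
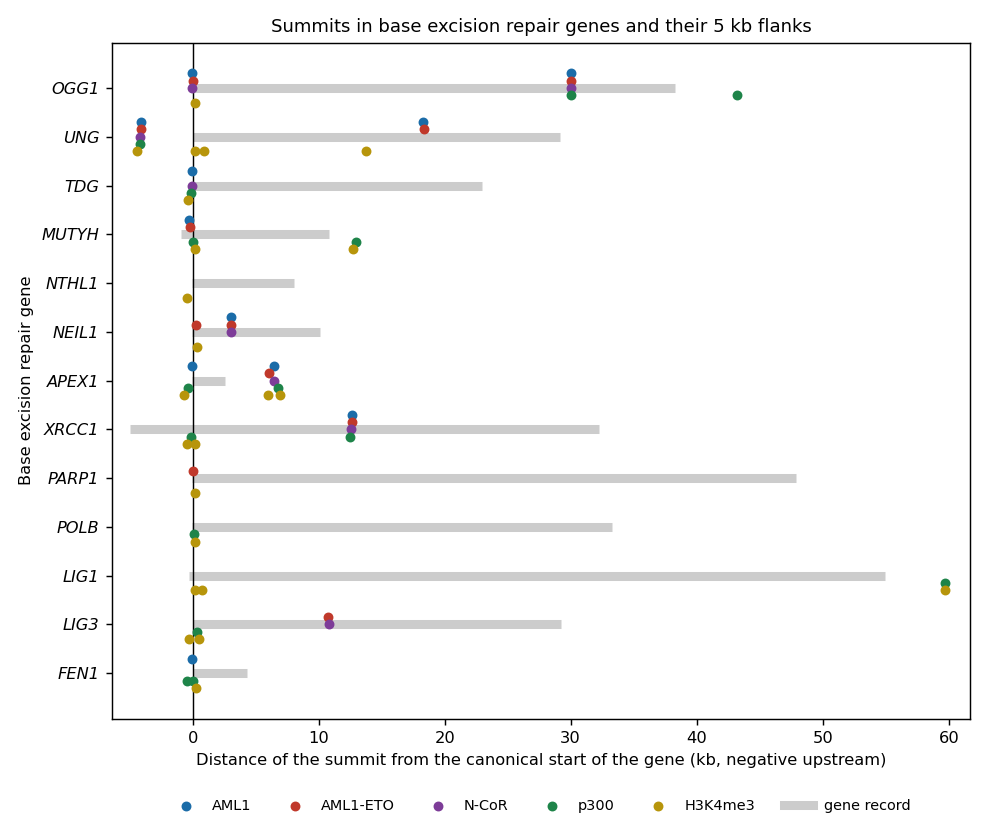
Each row is a base excision repair gene, with the extent of its gene record in grey and the summits of the 5 lists as coloured points; the horizontal axis is the distance from the canonical start in kb. AML1-ETO, AML1 and N-CoR coincide 30 kb into OGG1 and in the introns of NEIL1 and XRCC1, while the AML1-ETO and N-CoR points of LIG3 lie apart from its canonical start.

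The replicative polymerases POLE and POLD1 and the clamp PCNA copy DNA and also serve excision and mismatch repair. POLE had AML1 at -142 bp and p300 at -1 bp at a start shared with PXMP2, and p300 at 266 bp of an internal start. AML1-ETO was in POLE at 3 intronic sites, each overlapped by AML1 (1, 37 and 15 bp apart) and 2 of them by N-CoR. POLD1 had AML1-ETO at -102 bp and p300 at 3 bp of different starts, with the summits 235 bp apart. PCNA had AML1 at -113 and -43 bp and p300 at -10, 164 and -248 bp of its starts, of which the upstream one is shared with CDS2. Of the mismatch repair genes, MSH6 had p300 at 10 bp, and AML1-ETO, N-CoR and p300 met within 50 bp in a coding exon 15651 bp downstream of the canonical start, with the nearest AML1 summit 313095 bp away. PMS2 had H3K4me3, within 1 kb of a start of AIMP2, and none of the 4 proteins.

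In nucleotide excision repair, XPC, the damage sensor, was the gene with both forms of AML1. AML1 lay at -162 bp and AML1-ETO at -100 bp, 62 bp apart, at a start shared with LSM3, and both lay 25 bp apart in the intron shown above. ERCC5, a nuclease that cuts on the 3′ side of the lesion, had AML1-ETO at -53 bp and p300 at -23 bp. ERCC1, whose product forms the nuclease on the other side, had AML1-ETO summits at 137, -447 and -31 bp, N-CoR at -484 bp and p300 at 9, -145, 82 and 216 bp. Its gene record spans 71495 bp with 18 starts, and all 3 AML1-ETO summits lay at least 4284 bp from the canonical start, so this gene too is lost from the count by canonical starts. XPA had p300 alone at 72 bp. ERCC3, a helicase of the same pathway, had p300 at 6 bp, with AML1-ETO and AML1 beyond 1 kb, at -1070 and -1119 bp. ERCC2, ERCC4 and DDB2 had none of the 4 proteins in the gene or its flanks.

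In double-strand break repair, the sensor complex of MRE11, RAD50 and NBN and the kinases it works with are described first. NBN had AML1 at -7 bp, AML1-ETO at 75 bp, N-CoR at 88 bp and p300 at 48 bp of its starts, with the AML1-ETO and N-CoR windows overlapping. RAD50 had AML1 at 43 bp, AML1-ETO at 57 bp and p300 at 10 bp, within 1 kb of an annotated start of IL5. MRE11 had no protein at a start, and in its intron AML1-ETO and AML1 stood 13 bp apart at the window with 2 copies of TGTGGT. The kinase gene ATM had AML1 at -491 bp, AML1-ETO at -9 bp and p300 at -5 bp, at a start shared with NPAT, and a further AML1-ETO site in an intron 28 bp from AML1. ATR, the kinase for stalled replication, had AML1 at -53 bp, N-CoR at -127 bp and p300 at -88 bp, all overlapping, with the nearest AML1-ETO summit 17558 bp away.

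The kinase PRKDC, which acts in end joining, had AML1 at -747 bp, AML1-ETO at -687 bp and p300 at -21 bp, at a start shared with the replication gene MCM4. The other end joining genes XRCC5 (-46 bp), XRCC6 (-187 bp) and LIG4 (-80 bp) had p300 alone. At XRCC6 and LIG4 this summit lay within 1 kb of a start of another protein-coding gene. BRCA2, which loads the recombinase, had AML1 at -277 bp and AML1-ETO at -286 bp, 9 bp apart, at a start shared with ZAR1L. Its partner PALB2 had p300 alone at -51 bp, also within 1 kb of a start of another protein-coding gene. BRCA1 had none within 1 kb, and the summits of all 4 proteins in its flank lay together at the start of NBR1. PRKDC at -687 bp was the AML1-ETO summit just inside the limit of 1 kb, and BRCA1 at -1031 bp was just outside it. In crosslink repair FANCD2 had AML1-ETO at -8 bp and p300 at 20 bp, overlapping, and FANCA p300 at 146 bp. MGMT, which removes methyl groups from guanine, had p300 at -278 and 39 bp and 2 AML1-ETO sites in introns, 1 of them 9 bp from AML1.

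The summits at repair gene starts lay close to the start. The 17 AML1-ETO summits lay a median of 57.0 bp from it, against 116 bp for all AML1-ETO summits at protein-coding starts, and 11 of them were within 100 bp. The median was 53.0 bp for 15 AML1 summits (88.0 bp for all), 108 bp for 6 N-CoR summits (93.5 bp), 48.0 bp for 35 p300 summits (60.0 bp) and 183 bp for 63 H3K4me3 summits (227 bp). A gene with more annotated starts has shorter distances by construction, and the part of this in these medians was not tested.

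**Figure D5:**
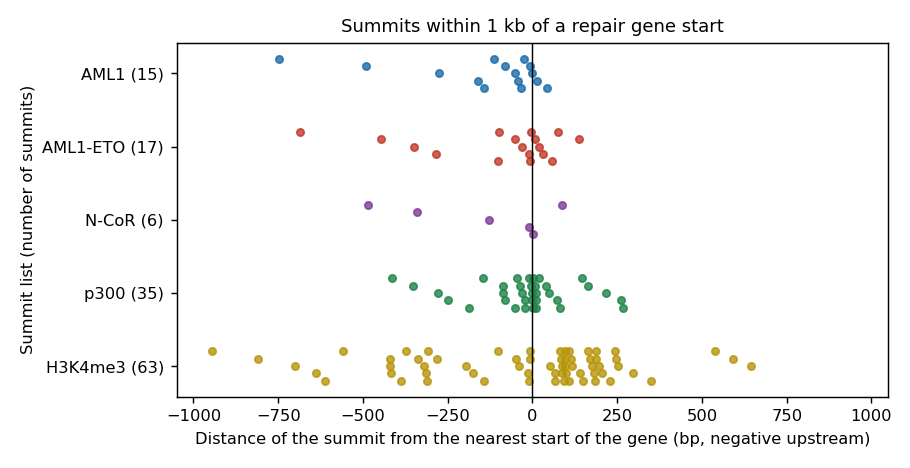
Each point is a summit within 1 kb of a repair gene start, by list, with its distance from the nearest start of the gene in bp (negative upstream). AML1-ETO summits run from -687 to 137 bp with a median distance of 57.0 bp, AML1 summits from -747 to 43 bp, and H3K4me3 summits are the most spread, with a median of 183 bp.

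Of the 17 AML1-ETO windows at repair gene starts, 6 overlapped AML1 (35.3%, 14.2 to 61.7, beside 39.0% of all AML1-ETO windows at protein-coding starts). N-CoR overlapped 4 (23.5% beside 31.5%), p300 overlapped 4 (23.5% beside 31.9%), and 5 overlapped none of the other proteins (29.4% beside 40.2%). Of the 15 AML1 windows, 7 overlapped no other protein (46.7%, 21.3 to 73.4, beside 25.5%). Of the 35 p300 windows, 29 did so (82.9%, 66.4 to 93.4, beside 64.5%), so most p300 windows did not overlap those of the other 3 proteins. This holds for windows of 100 bp only. Within 1 kb of a start, p300 was without the other 3 proteins at 11 of its 27 genes. Of the 6 N-CoR windows, 0 overlapped no other protein (interval 0 to 45.9%, beside 17.2%), and the 3 at OGG1, LIG3 and NBN held TGTGGT (50.0%, 11.8 to 88.2, beside 10.5%). Away from starts, 15 of 23 AML1-ETO windows overlapped AML1 (65.2%, 42.7 to 83.6, beside 49.1%) and 9 overlapped N-CoR (39.1% beside 41.9%). The sets are unlike here, since 6 of the 23 lay within 1 kb of a start of a neighbouring gene. The windows they are set beside all lay more than 1 kb from any protein-coding start.

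Sequences bound by factors of the ETS family were searched on both strands in the same windows. They were AGGAAG and, as in sites of PU.1, GAGGAA, which can overlap it within GAGGAAG, and also CCGGAA. The first, AGGAAG, was in 5 of the 17 AML1-ETO windows (29.4% beside 25.5%), GAGGAA in 3 (17.6% beside 17.8%) and CCGGAA in 4 (23.5% beside 13.2%). At canonical starts 13.1% of windows hold the first, 2019 of 19881 the second and 12.3% the third. Of the 35 p300 windows, AGGAAG was in 2 (5.71% beside 16.8%), GAGGAA in 3 (8.57% beside 12.6%) and CCGGAA in 10 (28.6%, 14.6 to 46.3, beside 16.3%).

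Many repair genes start next to another gene. An annotated start lay within 1 kb of a start of another protein-coding gene for 23 of the 41 (56.1%), against 23.4% of protein-coding genes and 31.3% of marked genes. AML1 was at a start of 12 of these 23 genes and of 2 of the 18 others, ATR and NBN. Among marked genes AML1 was at 33.8% of genes with a shared start and 25.7% of those without. AML1-ETO was at 9 of the 23 and 6 of the 18, beside 35.4% and 34.3% of marked genes.

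Over the whole gene with its flanks, AML1-ETO had a summit in 26 of the 41 genes (63.4%, 46.9 to 77.9), against 41.3% of protein-coding genes and 53.5% of marked genes. AML1 was in 22 (53.7%, 37.4 to 69.3; 34.9% and 46.2%), N-CoR in 14 (34.1%, 20.1 to 50.6; 26.7% and 36.0%) and p300 in 31 (75.6%, 59.7 to 87.6; 45.5% and 66.2%). H3K4me3 was in all 41, against 68.0% of protein-coding genes. The 11 genes that AML1-ETO reached only away from a start were APEX1, BRCA1, ERCC3, FANCA, MGMT, MRE11, MSH6, PCNA, POLE, UNG and XRCC1. At APEX1, BRCA1, FANCA, PCNA and UNG such a summit lay within 1 kb of a start of a neighbouring gene. By pathway AML1-ETO was in 8 of 13 base excision (61.5%, 31.6 to 86.1), 4 of 8 nucleotide excision (50.0%, 15.7 to 84.3) and 7 of 12 double-strand break repair genes (58.3%, 27.7 to 84.8). Repair genes were somewhat longer than marked genes, with a median of 38.2 kb against 35.1 kb, and double-strand break repair genes had a median of 87.8 kb against 29.1 kb for base excision repair. The part of gene length in these counts was not tested. NTHL1, PMS2, ERCC2, ERCC4 and DDB2 had none of the 4 proteins at all, or 12.2% of the 41 beside 38.5% of protein-coding genes and 2260 of the 12565 marked genes.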

How the data were processed

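Per the labels and the methods of the study, the authors sequenced ChIP libraries from Kasumi-1 cells (CASAVA 1.6), aligned the reads to GRCh37 with Bowtie 0.12.8, merged both replicates of an antibody, and then ran MACS2 2.0.10.20131216. The deposited lists hold chromosome, start, end and a numbered name, with no score; every interval is 100 bp wide. The meaning of the numbering is not given in the sources used here. The H3K27me3 and input samples were not analysed here.

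Summits were placed on GENCODE release 44 lifted to GRCh37, using all annotated starts of each gene. Windows overlap when they share at least 1 bp. There is 1 list per antibody and no replicate, so no test was made; counts are set beside all protein-coding genes. The deposited lists do not give the depth. The planned stricter peak threshold was replaced by the peaks numbered up to the middle of each list.

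All 41 genes are accounted for: those with a protein summit within 1 kb of a start are described with its distance, the others are listed, and other repair genes are named when AML1-ETO is at a start, at most 5 a pathway by distance. The members and lists were chosen with earlier results of these data known. Genes that act in several pathways (POLE, POLD1 and PCNA, LIG1, ATR, FANCA and FANCD2) were reassigned as an alternative, and the canonical start, and pathway and overlap counts without chromosomes 8 and 21, were added as alternatives after seeing the data. Some markers, and a gene that the naming rule takes, are not reported here. Sequences were read from the GRCh37 genome. The counting was tested on simulated data, where all 200 summits planted near starts were recovered. Software: samtools 1.23.1 and, under Python 3.11.15, SciPy 1.17.1, matplotlib 3.10.9, numpy 2.4.6 and pysam 0.24.0.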

Additional observations from a re-analysis of the deposited data

How the results depend on the processing

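Of 97 recomputed values, 76 stayed within 1.5 times the reported count and 21 moved further. Only the peaks numbered up to the middle of each list were kept first. With these peaks, AML1 was in 12 genes with flanks (19.8% of protein-coding genes), AML1-ETO in 16 (24.4%) and N-CoR in 7 (13.8%). AML1 was at a start of 5 genes, AML1-ETO at 7, N-CoR at 0 and p300 at 15. The shares of protein-coding genes fell by construction too, to 8.54%, 10.9%, 5.11% and 21.6% at starts for the 4 lists in this order. AML1-ETO was then at 3 base excision, 1 nucleotide excision and 3 double-strand break repair genes. Without flanks, AML1 was in 13 genes (23.0% of protein-coding genes), AML1-ETO in 17 (29.6%), N-CoR in 8 (18.1%) and p300 in 20 (29.8%). N-CoR was at 10 genes within 2 kb of a start (15.4% of protein-coding genes), and at 3 with the 5′ end of the gene record alone (9.49%), where AML1-ETO was at 3 double-strand break repair genes. With POLE, POLD1 and PCNA counted as mismatch repair, AML1-ETO was at 1 gene of that pathway, POLD1. With windows of 25 bp to either side, 3 AML1-ETO windows overlapped AML1 (31.4% of those at all protein-coding starts) and 2 overlapped p300 (22.6%). For values beyond 1.5 times, the cause was not tested where the alternative does not itself remove summits or starts. Without chromosomes 8 and 21, which hold POLB, NBN and PRKDC, AML1-ETO was at 3 double-strand break repair genes, N-CoR at 1 of that pathway, and no gene had all 5 lists. The counts over all 41 genes, the other pathway counts of AML1-ETO, and its overlaps and TGTGGT then stayed within 1.5 times. No paired analysis was possible because the replicates were pooled before peak calling. The lists do not give the depth, and a gene without a summit had none above the peak caller's threshold, which does not show that the protein was absent.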
